A study of Mus musculus with 30 samples.

Results

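The interleukin 12 family comprised 5 genes here, the subunit genes Il12a, Il12b, Il23a, Il27 and Ebi3. They were picked by symbol from 25611 gene rows of a table of RNA-sequencing read counts, and all 5 passed the filter on low counts that left 14808 genes for testing, Il23a only through the libraries given Jurkat cells for 4 h. The cells were dendritic cells, which take up material and present its antigens to T cells. Bone marrow of mice was cultured with FLT3L (200 ng/ml), the cytokine that drives dendritic cell development, until day 6 or 7. The mice were wild type (WT) or carried a Rubcn knockout (KO). Rubcn encodes Rubicon, a regulator of autophagy and of LC3-associated phagocytosis. Cells of each genotype were left untreated, given ovalbumin protein (OVA) for 30 min or 4 h, or given apoptotic Jurkat cells for 30 min or 4 h. Jurkat is a human T-cell leukaemia line. There were 30 libraries, 3 in each of 10 groups. The deleted part of Rubcn, the strain and age of the mice, and whether libraries of a group came from separate mice are not given in the labels, so p-values measure only the spread between these libraries.

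Interleukin 12 cytokines are secreted as heterodimers of a helical alpha subunit and a receptor-like beta subunit. The p40 protein of Il12b pairs with p35 of Il12a to form IL-12, which drives interferon gamma production by T and NK cells, and with p19 of Il23a to form IL-23, which sustains IL-17-producing T cells. The EBI3 protein pairs with p28 of Il27 to form IL-27, which acts on T cells through Il27ra and Il6st. Dendritic cells and macrophages are the main sources of these cytokines, and the beta subunit genes are known targets of NF-kappa-B. Transcript counts do not measure the paired, secreted proteins.

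On the mm10 build, Il12a (Entrez 16159) lies at chr3:68690644-68698550 on the plus strand and Il12b (16160) at chr11:44400063-44414677 on the plus strand. Il23a (83430) lies at chr10:128296140-128298084 on the minus strand, Il27 (246779) at chr7:126589295-126594910 on the minus strand, and Ebi3 (50498) at chr17:55952623-55957022 on the plus strand. Promoter sequences, from 250 bases before to 50 bases after a start site, were taken from RefSeq (GRCm38.p6) and matched 3 of the 5 members, Il12a, Il12b and Ebi3. They are shown because the Il12b and Ebi3 transcripts rose after 4 h of Jurkat cells while that of Il12a fell. The transcripts of the alpha subunits Il27 and Il23a rose as well, but no promoter sequence matched them. Each sequence reads 5′ to 3′ on the plus strand, with motif matches in capitals, and positions count the start site as 1. The Il12b window is chr11:44399813-44400112, the Ebi3 window chr17:55952373-55952672, and the Il12a window chr3:68691174-68691473, at the more downstream of its 2 listed start sites.
Il12b: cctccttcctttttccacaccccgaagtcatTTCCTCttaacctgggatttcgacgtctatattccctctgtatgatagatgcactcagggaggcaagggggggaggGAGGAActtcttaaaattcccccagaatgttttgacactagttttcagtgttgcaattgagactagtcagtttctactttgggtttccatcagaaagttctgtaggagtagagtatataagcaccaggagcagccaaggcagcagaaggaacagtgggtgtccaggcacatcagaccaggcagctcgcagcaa
Ebi3: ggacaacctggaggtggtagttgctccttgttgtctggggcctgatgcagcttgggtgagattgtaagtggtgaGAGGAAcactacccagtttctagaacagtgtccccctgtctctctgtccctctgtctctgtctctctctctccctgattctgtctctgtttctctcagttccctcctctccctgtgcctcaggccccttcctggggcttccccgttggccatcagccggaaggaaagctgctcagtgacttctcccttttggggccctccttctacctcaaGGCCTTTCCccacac
Il12a: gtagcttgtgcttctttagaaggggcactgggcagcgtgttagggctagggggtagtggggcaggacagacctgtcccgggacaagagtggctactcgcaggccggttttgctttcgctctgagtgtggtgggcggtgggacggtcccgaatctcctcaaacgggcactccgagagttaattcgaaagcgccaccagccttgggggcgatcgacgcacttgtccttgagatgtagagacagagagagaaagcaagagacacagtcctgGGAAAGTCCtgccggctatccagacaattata
The search used 5 motifs on both strands: GGNNTTTCC (kappa-B-like), GAAANNGAA (like an interferon-stimulated response element), TGANTCA (AP-1-like), GAGGAA (PU.1-like) and TTNNGNAA (C/EBP-like). In the Il12b window GAGGAA stood at -143, and its reverse complement, TTCCTC, at -219. The Ebi3 window held GAGGAA at -176 and GGCCTTTCC, a kappa-B-like match, at 36. The Il12a window held GGAAAGTCC, a kappa-B-like match on the minus strand, at 19. No other match was found in these 3 windows, and none in that of the more upstream Il12a start site, chr3:68690394-68690693. Of 32851 promoters of this length, 5.82% held GGNNTTTCC, 8.56% GAAANNGAA, 7.81% TGANTCA, 28.3% GAGGAA and 40.7% TTNNGNAA. A match is a description of letters, not a measured binding site. Sites that differ from these 5 patterns were not searched for, so a missing match does not show that a site is absent.

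Levels are in CPM, counts relative to library sizes scaled by TMM, a method that assumes most genes do not change. Total counts ran from 9.73 M (KO, OVA for 30 min, replicate 3) to 51.6 M, with a median of 44.9 M. TMM factors were 0.765 to 0.842 in the libraries given Jurkat cells for 4 h and 1.03 to 1.07 in the others. Between replicates, the squared difference in counts over that expected from counting error was averaged over genes. It was 128.8 and 133.8 for KO replicate 2 at 4 h of Jurkat cells against replicates 1 and 3. Replicates 1 and 3 of that group gave 4.97, and the highest of all other pairs was 16.6. The cause was not tested. FDR is the Benjamini-Hochberg adjusted p of edgeR's quasi-likelihood test over all 14808 genes, and an FDR under 0.05 makes a call. Rubcn transcripts were lower in KO than in WT in all 5 conditions but were present in every KO library, at 44.4 to 75.8 CPM against 56.1 to 104.6 CPM in WT. A total over the gene does not show whether the deleted part was read. Beside the dendritic cell label, 7 pan-dendritic markers summed to 20206 to 38709 CPM over the libraries. Cd74, H2-Aa and H2-Ab1 led that sum, reaching 17734, 10807 and 8952 CPM, while Flt3, Itgax, Zbtb46 and Ciita reached 115.9 to 661.5 CPM. The sum of 10 monocyte or macrophage markers was 3371 to 4736 CPM. These sums describe the cultures and do not test the label. Between WT and KO, the sum of 6 basophil or mast cell markers did not overlap (19.6 to 36.6 CPM in WT, 54.8 to 108.1 CPM in KO), and none of the 6 was at 0 in any library. The sum of 10 plasmacytoid dendritic cell markers was lower in KO in every condition, without overlap between the libraries of the 2 genotypes. Of 7 stroma markers, 4 to 6 were called higher in KO in each condition, beside 9.25% to 22.9% of all genes called. In bulk RNA, fewer cells of a type and less RNA per cell cannot be told apart.

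**Figure D1:**
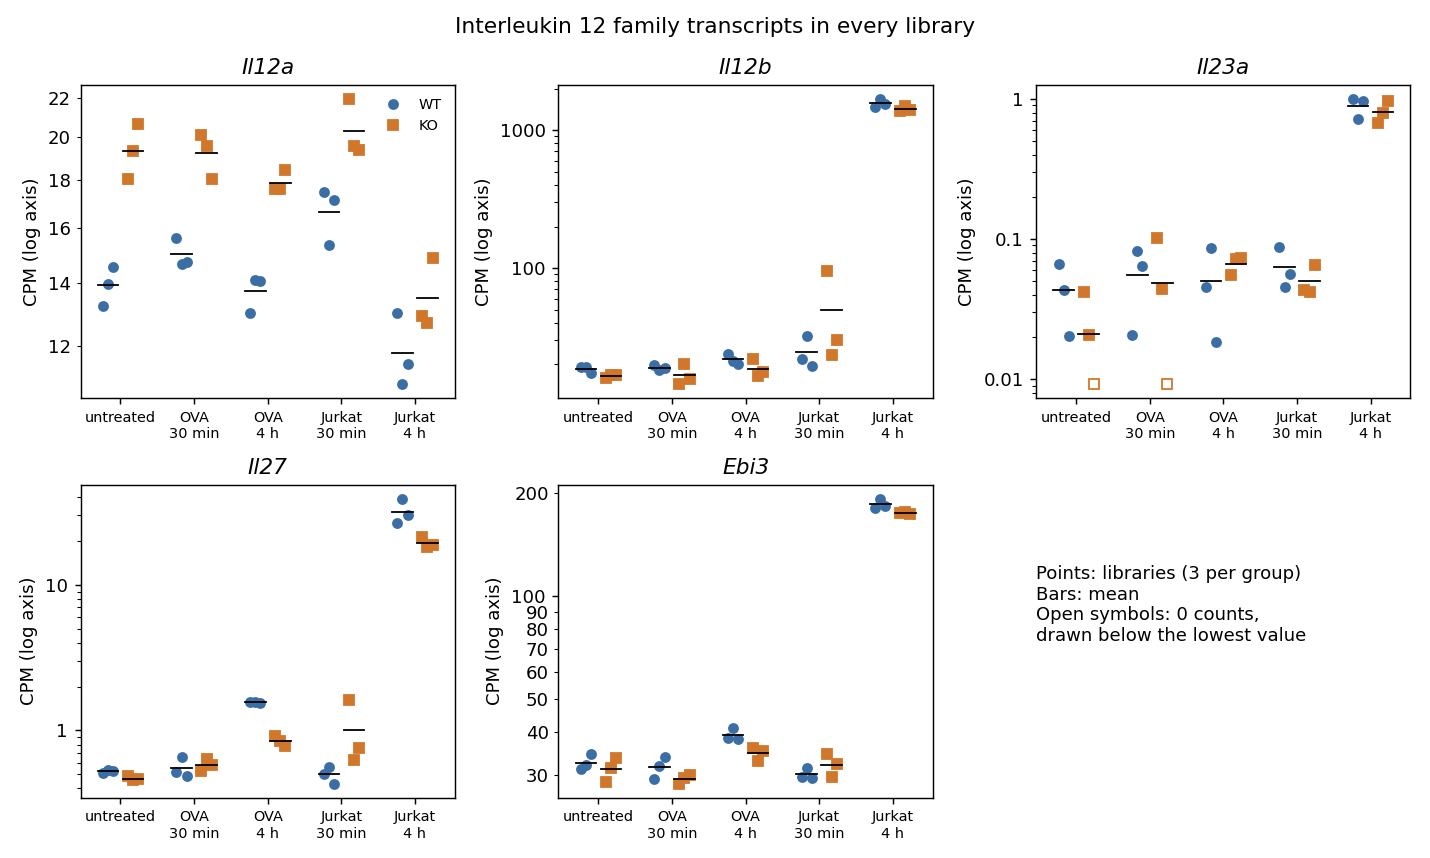
Level of each member in all 30 libraries, in CPM on a log axis, by condition and genotype (3 libraries per group; bars are means; open symbols are libraries with 0 counts, drawn below the lowest value). Il12b, Il23a, Il27 and Ebi3 stand above all other conditions after 4 h of Jurkat cells, while Il12a is lowest there within each genotype.

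Il12b, the shared p40 subunit of IL-12 and IL-23, was the member that rose furthest after 4 h of Jurkat cells. In WT it stood at 19.1, 19.1 and 17.3 CPM in the untreated libraries and at 1475, 1675 and 1555 CPM after 4 h. In KO the untreated libraries held 16.1, 16.8 and 16.7 CPM and the 4 h libraries 1374, 1499 and 1406 CPM. Treated and untreated libraries did not overlap in either genotype. Il12b was 84.6-fold higher in WT (log2 fold change 6.40 ± 0.32 SE, FDR 4.3e-17) and 86.3-fold higher in KO (6.43 ± 0.32, FDR 4.67e-17).

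Il27, the p28 subunit of IL-27, rose from a low level. Its WT libraries held 0.512, 0.539 and 0.531 CPM untreated and 26.7, 39.0 and 30.0 CPM after 4 h of Jurkat cells, a 60.1-fold rise (5.91 ± 0.18, FDR 3.4e-22). Its KO libraries held 0.483, 0.456 and 0.461 CPM untreated and 21.4, 18.2 and 18.7 CPM after 4 h, a 41.4-fold rise (5.37 ± 0.19, FDR 8.35e-21). Every 4 h KO library lay below every 4 h WT library.

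Ebi3, the beta subunit that pairs with p28, was already well expressed in untreated cells and rose less. It stood at 31.1, 32.1 and 34.6 CPM in untreated WT and at 181.4, 192.4 and 183.3 CPM after 4 h of Jurkat cells (5.69-fold, 2.51 ± 0.06, FDR 3.86e-25). In KO it went from 28.7, 31.5 and 33.6 CPM to 175.5, 175.8 and 173.4 CPM (5.59-fold, 2.48 ± 0.06, FDR 5.28e-25). The 3 KO libraries at 4 h lay just below the 3 WT libraries, but the genotype difference was not called (-0.09 ± 0.05, FDR 0.256).

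Il23a, the p19 subunit of IL-23, was the rarest member. Untreated WT libraries held 3, 2 and 1 counts and untreated KO libraries 2, 1 and 0. After 4 h of Jurkat cells the counts were 38, 24 and 32 in WT and 25, 30 and 37 in KO, which is 0.892 ± 0.152 and 0.810 ± 0.149 CPM (SD, n = 3). With counts this low the rise is best given as a ratio of summed counts with its 95% exact interval, for counting error only: 21.0 (9.28 to 58.6) in WT and 39.4 (13.1 to 194.6) in KO. Since Il23a passed the filter on low counts only through these 4 h libraries, its fitted rise is not counted among the calls below. Il23a had 0 counts in 1 untreated KO library, which allows up to 0.0601 CPM, and in the shallow KO library given OVA for 30 min, which allows up to 0.290 CPM.

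Il12a, the p35 subunit that sets IL-12 apart from IL-23, went the other way. Its WT libraries held 13.2, 13.97 and 14.6 CPM untreated and 13.0, 10.9 and 11.5 CPM after 4 h of Jurkat cells. Its KO libraries held 18.0, 19.3 and 20.6 CPM untreated and 12.9, 12.7 and 14.9 CPM after 4 h. Il12a fell to 0.850 of its untreated level in WT (-0.23 ± 0.07, FDR 0.00529) and to 0.698 in KO (-0.52 ± 0.07, FDR 1.3e-07). The ranges did not overlap in either genotype, though the highest treated and lowest untreated WT libraries were close.

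The 4 members other than Il23a were thus all called after 4 h of Jurkat cells in both genotypes, 3 higher and 1 lower. Such calls were common in that comparison: 79.5% of all genes tested were called in WT and 78.5% in KO. Their log2 fold changes ran from -0.23 to 6.40 in WT and from -0.52 to 6.43 in KO, beside medians of -0.02 and -0.03 over all genes tested. With total counts in place of TMM the medians of all genes were -0.42 in WT and -0.37 in KO, and the direction and the call of these 4 members were as with TMM.

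**Figure D2:**
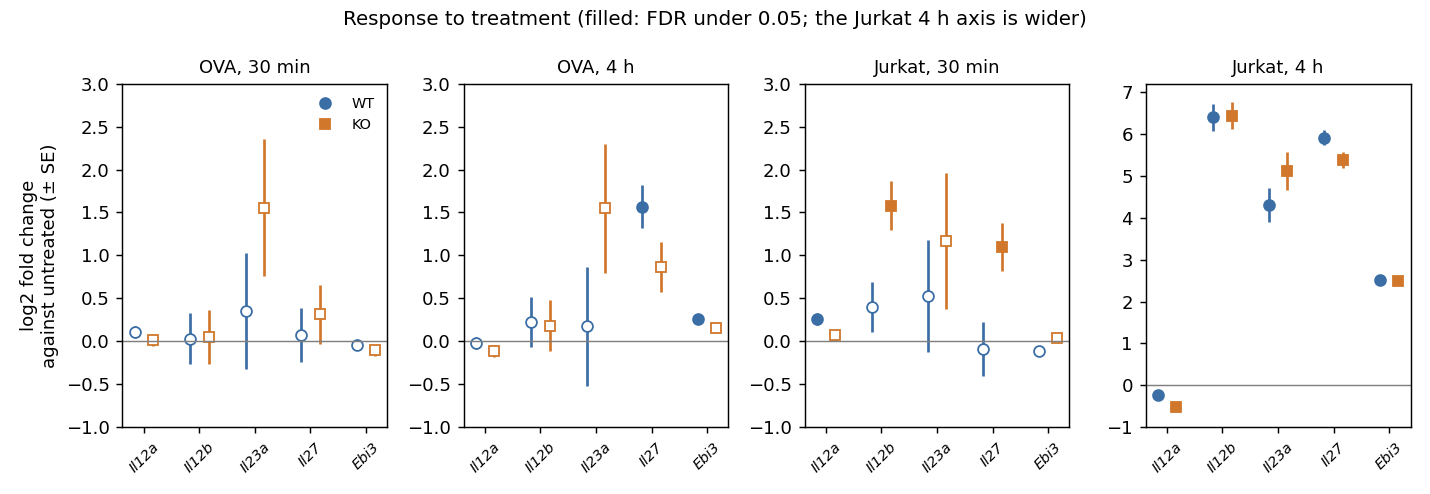
Log2 fold change against untreated cells of the same genotype for each member, with its SE, after each treatment (filled symbols are called at FDR under 0.05). The 4 h Jurkat panel has a wider axis, on which Il12b, Il23a, Il27 and Ebi3 lie between 2.48 and 6.43 and Il12a below 0.

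The same order held against OVA at the matched time. Jurkat-treated WT cells at 4 h held 72.2-fold more Il12b (6.17 ± 0.32, FDR 9.54e-17), 20.3-fold more Il27 (4.34 ± 0.15) and 4.73-fold more Ebi3 (2.24 ± 0.06) than OVA-treated WT cells, and KO cells 76.0-fold, 22.7-fold and 5.03-fold more. The 4 members other than Il23a were called in both genotypes, beside 77.5% of all genes in WT and 76.4% in KO. The Il12a difference in WT was the least firm: -0.21 ± 0.07 (FDR 0.0105), with 1 Jurkat library inside the OVA range, and not called with DESeq2 (-0.14, adjusted p = 0.0958), with DESeq2's size factors (-0.14, FDR 0.0825) or without WT Jurkat replicate 2 (-0.17, FDR 0.0669). Between 30 min and 4 h of Jurkat cells, these 4 were again called, 3 higher and 1 lower, with backgrounds of 78.6% in WT and 77.1% in KO.

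Several lists of cell type markers moved with this response, that of the T-cell lineage, from which the Jurkat line comes, among them. Of 20 T-lineage genes, 17 were in the table and 16 were tested. After 4 h of Jurkat cells, 13 were called higher and 3 lower in WT, where 79.5% of all genes tested were called. In KO 11 were called higher and 4 lower, beside 78.5% of all genes. Cd3e, Bcl11b and Themis each reached the low-count filter's minimum of 0.223 CPM in 12 libraries, 6 of them outside 4 h of Jurkat cells. If those 6 also held Jurkat cells, the filter itself favoured a higher call for these genes. The T-lineage sum went from 85.7 to 91.3 CPM in untreated WT to 169.1 to 205.7 CPM, and from 97.6 to 105.3 CPM to 148.4 to 168.3 CPM in KO. Cd3e, a T-cell receptor complex gene, was at 0.0778 CPM in untreated WT and at 6.09 CPM after 4 h, and at 4.08 CPM in KO after 4 h. These genes were thus read in untreated libraries too, which held no Jurkat cells, and how the counting treated human reads is not given in the sources used here. Of 9 markers of conventional type 2 dendritic cells, 8 were called lower in WT and 7 in KO, with 1 higher in each. Their sum went from 1899 to 1966 CPM in untreated WT to 991.0 to 1066 CPM, and from 1966 to 2109 CPM to 1143 to 1230 CPM in KO. Of the 7 stroma markers, 6 were called higher in WT and 7 in KO, with sums of 781.0 to 910.2 CPM and 1001 to 1247 CPM after 4 h. The same shares of all genes, 79.5% in WT and 78.5% in KO, stand beside the type 2 and stroma counts. The part of these changes, and of Jurkat reads, in the counts of the members was not tested.

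OVA moved 2 members in WT at 4 h. Il27 stood at 1.57, 1.58 and 1.56 CPM after 4 h of OVA in WT, all above the untreated libraries, a 2.96-fold rise (1.57 ± 0.25, FDR 2.69e-05). Ebi3 stood at 38.5, 41.1 and 38.1 CPM, also without overlap, a 1.20-fold rise (0.27 ± 0.06, FDR 0.00106). Both subunits of IL-27 thus rose in WT, beside 23.5% of all genes called. In KO, Il27 stood at 0.919, 0.842 and 0.780 CPM after 4 h of OVA, above its untreated libraries but short of a call (0.87 ± 0.29, FDR 0.0506). Ebi3 in KO was at 36.0, 33.1 and 35.2 CPM, overlapping its untreated range (0.15 ± 0.06, FDR 0.0977).

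In KO, none of the 5 members was called by edgeR after 4 h of OVA, where 11.6% of all genes were. Of the 5, 2 had an unadjusted p under 0.05, and DESeq2 called 1, Il27 (0.87, adjusted p = 0.0102). Il27 was also called with total counts, without the filter on low counts and in a fit of the compared groups alone (FDR 0.0373, 0.0415 and 0.0132). The difference between genotypes in the Il27 response was -0.70 ± 0.40 (FDR 0.715). After 30 min of OVA, edgeR and DESeq2 called 0 of the 5 members in either genotype and none had an unadjusted p under 0.05, while 10.7% of all genes were called in WT and 3.77% in KO. Between 30 min and 4 h of OVA, Il27 (1.49 ± 0.25) and Ebi3 (0.31 ± 0.06) rose in WT, where 29.7% of genes were called. In KO only Ebi3 was called (0.26 ± 0.06, FDR 0.00541), beside 12.8%.

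After 30 min of Jurkat cells, edgeR called 1 member in WT and 2 in KO, and 1 KO library stood apart. In WT, Il12a was the 1 member called, at 17.5, 15.4 and 17.2 CPM, all above the untreated WT libraries (0.26 ± 0.07, FDR 0.00575, with 28.7% of genes called). Il12b in WT stood at 21.9, 32.2 and 19.5 CPM, also all above its untreated libraries. That difference was 1.32-fold and was not called (0.40 ± 0.29, FDR 0.331). In KO, Il12b stood at 94.8, 23.5 and 30.1 CPM, all above the untreated range, and Il27 at 1.63, 0.627 and 0.760 CPM, likewise. Both were called (Il12b 1.58 ± 0.29, FDR 0.000229; Il27 1.10 ± 0.28, FDR 0.00666), beside 17% of genes. Replicate 1 stands apart in each. Without it, Il12b was still called (0.70, FDR 0.00144) and Il27 was not (0.57, FDR 0.161). In a fit of the compared groups alone, with all libraries, neither was called (1.59, FDR 0.0503 and 1.10, FDR 0.0842).

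The same KO library was high in other inducible cytokine genes. Cxcl10, an interferon-induced chemokine, stood at 102.6 CPM in KO replicate 1 and at 8.99 and 20.6 CPM in replicates 2 and 3, against 4.32 to 4.76 CPM in WT. Cxcl9, a chemokine of the same family, stood at 59.8, 3.81 and 9.62 CPM in KO and at 0.939 to 1.58 CPM in WT. Il6 stood at 7.15, 0.899 and 1.71 CPM in KO and at 0.413 to 0.569 CPM in WT. For these 3 genes the other KO libraries also lay above the WT range. Tnf did not single out that library, with 98.5 to 133.1 CPM in KO.

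**Figure D3:**
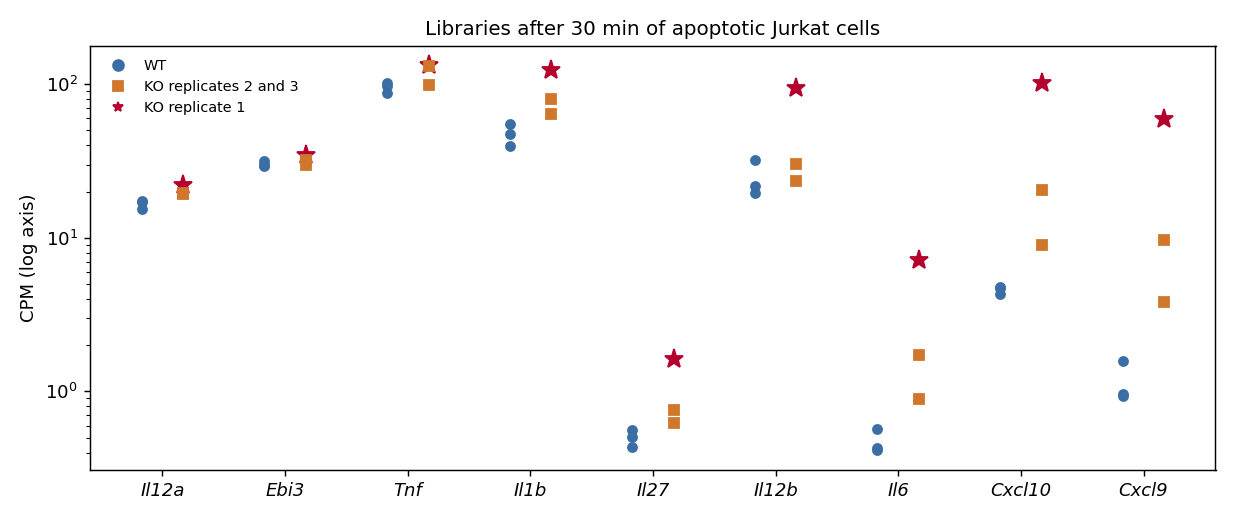
CPM, on a log axis, of 4 members and 5 induced cytokines in the 6 libraries given Jurkat cells for 30 min. KO replicate 1 (stars) lies above the other KO libraries for Il12b, Il27, Il6, Cxcl10 and Cxcl9, and at 94.8 CPM against 23.5 and 30.1 CPM for Il12b.

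Against OVA at 30 min, edgeR called 0 of 5 members for Jurkat cells in WT (1 with an unadjusted p under 0.05, Il12a, and 0 with DESeq2), beside 24.3% of genes. In KO it called Il12b (1.54 ± 0.30, FDR 0.00111, and 0.65, FDR 0.00819 without KO replicate 1), beside 10.2%.

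KO cells held more Il12a than WT cells in each condition. Untreated, the 3 KO libraries (18.0, 19.3 and 20.6 CPM) all lay above the 3 WT libraries (13.2, 13.97 and 14.6 CPM), a 1.39-fold difference (0.47 ± 0.07, FDR 2.46e-05). The difference was 0.38 ± 0.07 after 30 min of OVA (FDR 0.000663), 0.38 ± 0.07 after 4 h of OVA (FDR 0.000278) and 0.28 ± 0.07 after 30 min of Jurkat cells (FDR 0.00724), each without overlap. After 4 h of Jurkat cells it was 0.19 ± 0.08, the ranges overlapped and it was not called (FDR 0.0704). The call at 30 min of Jurkat cells was lost without KO replicate 1 (0.22, FDR 0.0545) or without WT replicate 2 (0.23, FDR 0.0682). At 4 h of Jurkat cells a call was reached with total counts (0.27, FDR 0.0137) or without WT replicate 1 (0.27, FDR 0.0211).

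The basophil and stroma markers moved in the same direction as Il12a, and their part in its difference was not tested. All 6 basophil or mast cell markers were called higher in KO in each of the 5 conditions, with a median log2 difference of 1.44 in untreated cells. Of all genes, 9.25% to 22.9% were called in these comparisons. The sum of 7 stroma markers was 700.9 to 880.1 CPM in untreated KO and 545.8 to 625.9 CPM in untreated WT. The sum of 9 markers of conventional type 1 dendritic cells, which produce IL-12, overlapped in untreated cells, at 4592 to 4722 CPM in KO and 4511 to 4816 CPM in WT.

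Il27 was called lower in KO at 4 h of both treatments. After OVA its KO libraries reached 54.0% of the WT mean (-0.88 ± 0.23, FDR 0.0096), and after Jurkat cells 60.9% (-0.71 ± 0.12, FDR 7.89e-05). Neither pair of groups overlapped, and leaving out any 1 of the 6 libraries of either comparison ended no call. In untreated cells no difference was called (-0.18 ± 0.32, FDR 0.821). There too the KO libraries (0.456 to 0.483 CPM) all lay below those of WT (0.512 to 0.539 CPM). After 30 min of OVA no difference was called (0.06 ± 0.33, FDR 0.939). The plasmacytoid marker sum was also lower in KO at 4 h of Jurkat cells (3408 to 3788 CPM against 4214 to 4940 CPM), as was the T-lineage sum given above, and neither part in the Il27 difference was tested.

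After 30 min of Jurkat cells, Il12b (1.02 ± 0.28, FDR 0.0189) and Il27 (1.01 ± 0.28, FDR 0.0205) were called higher in KO. Both calls rested on KO replicate 1: without it the differences were 0.14 (FDR 0.639) and 0.48 (FDR 0.278). Leaving out WT replicate 1 or WT replicate 3 ended each call as well (Il12b 0.94, FDR 0.0784 and 0.88, FDR 0.0881; Il27 1.02, FDR 0.0562 and 0.91, FDR 0.0822). In the other 4 conditions Il12b was 85.8% to 90.9% of WT in KO, with no call. Its untreated libraries did not overlap, at 16.1 to 16.8 CPM in KO and 17.3 to 19.1 CPM in WT. Ebi3 was called lower in KO once, after 4 h of OVA (-0.17 ± 0.06, FDR 0.0453), where 36.0, 33.1 and 35.2 CPM in KO lay below 38.5, 41.1 and 38.1 CPM in WT. That call was lost with total counts (-0.14, FDR 0.105) and without any 1 of its 6 libraries. Il23a was not called in any of the 5 genotype comparisons, with standard errors of 0.25 to 0.82.

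**Figure D4:**
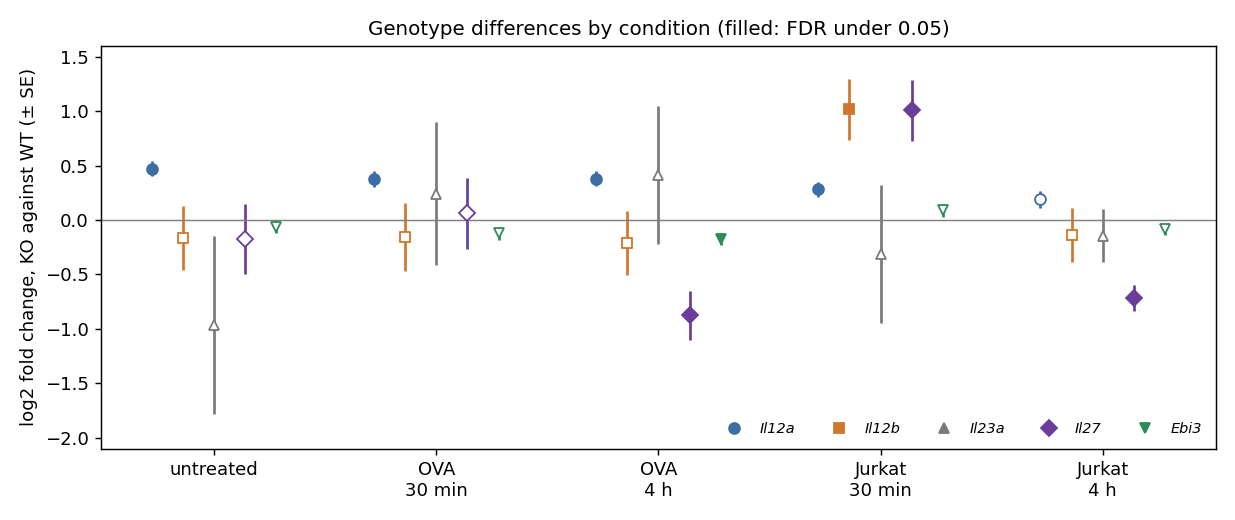
Log2 fold change of KO against WT for each member in each condition, with its SE (filled symbols are called at FDR under 0.05). Il12a lies above 0 in all 5 conditions, Il27 below 0 at 4 h of both treatments, and Il12b and Il27 near 1.0 after 30 min of Jurkat cells.

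Counted over members, edgeR called 1 of 5 between genotypes in untreated cells, 1 after 30 min of OVA, 3 after 30 min of Jurkat cells, 3 after 4 h of OVA and 1 after 4 h of Jurkat cells. The shares over all genes tested were 9.97%, 12.4%, 9.25%, 12.6% and 22.9% in that order. With KO replicate 1 left out, 0 of 5 members were called after 30 min of Jurkat cells.

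No member's response to a treatment was called different between genotypes. For 30 min of OVA, edgeR and DESeq2 called 0 of 5 members, none had an unadjusted p under 0.05, and 0% of all genes were called. For 30 min of Jurkat cells both tools called 0 of 5, 2 had an unadjusted p under 0.05 (Il12b 1.18 ± 0.41, FDR 0.466; Il27 1.18 ± 0.43, FDR 0.48), and 0.00675% of genes were called. Without KO replicate 1 these were 0.30 and 0.66, and without KO replicate 2 that of Il12b was called (1.52, FDR 0.0288). For 4 h of OVA both tools called 0 of 5, none had an unadjusted p under 0.05, and 0.0405% of genes were called. For 4 h of Jurkat cells both tools called 0 of 5, 1 had an unadjusted p under 0.05 (Il12a -0.28 ± 0.10, FDR 0.117), and 4.26% of genes were called. The Il27 term at 4 h of Jurkat cells was -0.54 ± 0.35 (FDR 0.427).

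A contrast added after the values were seen set the genotype difference at 4 h of Jurkat cells against that at 30 min. Il27 (-1.72 ± 0.30, FDR 0.00082) and Il12b (-1.15 ± 0.37, FDR 0.0497) were called, beside 8.83% of all genes. Without KO replicate 1 at 30 min, Il27 was still called (-1.19, FDR 0.00986) and Il12b was not (-0.27, FDR 0.414). The Il12b call was also lost with total counts, with the replicate block, with DESeq2 and in a fit of the compared groups alone.

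Levels of different genes were compared per kilobase (kb) of merged coding-transcript exons, which held 1370 bases for Il12a, 1967 for Il12b, 1360 for Il23a, 1021 for Il27 and 1154 for Ebi3 in GENCODE. The authors' intervals may differ from these, so the ratios are approximate. In untreated WT cells Ebi3 led with 28.3 CPM per kb, followed by Il12a with 10.2 and Il12b with 9.43, whose ranges overlapped, then Il27 with 0.516 and Il23a with 0.0319. After 4 h of Jurkat cells in WT the order was Il12b with 797.3 CPM per kb, Ebi3 with 160.9, Il27 with 31.2, Il12a with 8.62 and Il23a with 0.656, with no overlap between neighbours. In untreated KO cells Il12a (14.1 CPM per kb) lay above Il12b (8.40), without overlap, and after 4 h the KO order was that of WT.

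The ratio of the subunit transcripts of IL-12, Il12b over Il12a per kb, was 0.930 ± 0.092 in untreated WT and 0.597 ± 0.030 in untreated KO (SD, n = 3). It was 93.3 ± 13.9 in WT and 74.0 ± 8.27 in KO after 4 h of Jurkat cells, where the genotypes' ranges overlapped. The ratio of those of IL-27, Ebi3 over Il27, narrowed from 54.7 ± 2.63 to 5.26 ± 0.83 in WT and from 59.4 ± 6.21 to 8.01 ± 0.68 in KO, where every KO library at 4 h lay above every WT library. After 4 h of OVA it was 22.1 ± 0.80 in WT and 36.4 ± 3.02 in KO, and the ranges were apart.

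**Figure D5:**
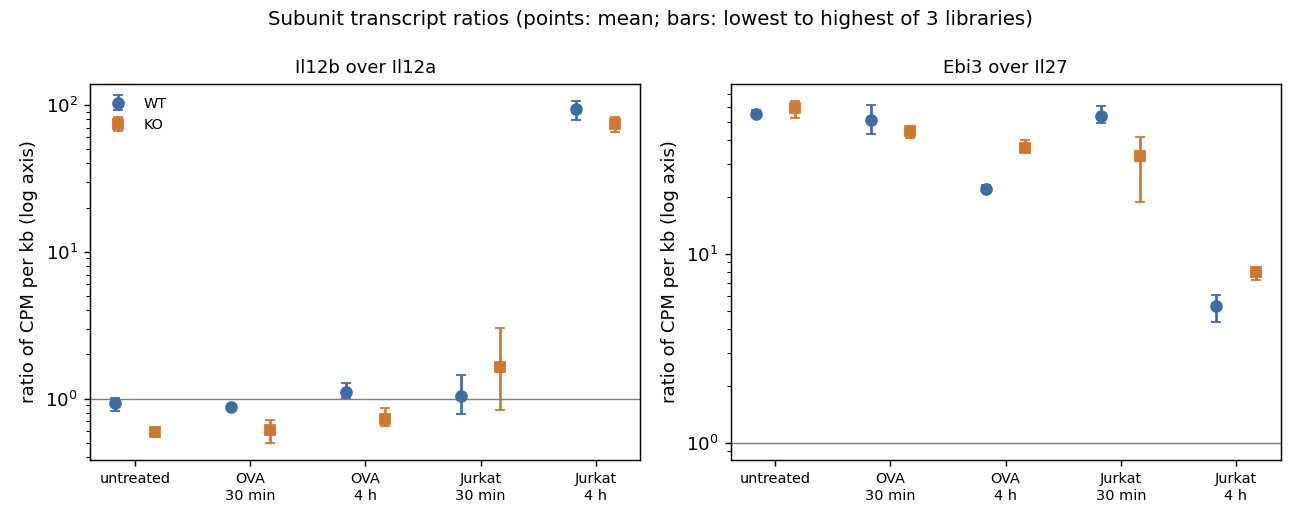
Ratio of subunit transcripts in CPM per kb, on a log axis, by condition and genotype (points are means, bars the lowest to highest of 3 libraries, the grey line marks a ratio of 1). Il12b over Il12a is 0.597 to 1.64 in the other groups and 74.0 to 93.3 after 4 h of Jurkat cells, where Ebi3 over Il27 is lowest.

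Across the 10 groups, the order of levels showed few clear steps. For Il12a, 4 of the 5 KO groups held the highest means, from 17.9 CPM (OVA for 4 h) to 20.3 CPM (Jurkat cells for 30 min), and the lowest of these was apart from the highest WT group, at 16.7 CPM. For Il12b the 8 groups other than those at 4 h of Jurkat cells had means of 16.5 to 49.5 CPM, and the 2 at 4 h, 1426 and 1568 CPM, overlapped each other. For Il27 the untreated, 30 min OVA and WT 30 min Jurkat groups lay at 0.467 to 0.581 CPM, each overlapping its neighbour, and KO at 4 h of OVA was apart from them. For Ebi3 the 7 lowest groups, from 29.2 to 34.7 CPM, each overlapped the next, and WT after 4 h of OVA (39.3 CPM) was apart. For Il23a each of the 8 groups below 4 h of Jurkat cells overlapped the next, while untreated KO (0 to 0.0420 CPM) lay apart from KO after 4 h of OVA (0.0551 to 0.0731 CPM), a difference that was not called (FDR 0.234).

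The pathway list held 13 receptor and signalling genes of the family. In each genotype 11 of 13 were called higher and 1 lower after 4 h of Jurkat cells, with a median log2 fold change of 1.53 in WT and 1.38 in KO, beside 79.5% and 78.5% of all genes called. With total counts the split was 8 higher and 3 lower in WT and 8 higher and 2 lower in KO. Il12rb1, the receptor chain shared by IL-12 and IL-23, rose from 1.501 to 12.3 CPM in WT (3.02 ± 0.12) and from 1.51 to 9.48 CPM in KO (2.65 ± 0.12). Il23r rose from 0.166 to 0.882 CPM in WT and from 0.149 to 0.627 CPM in KO. Il6st, the gp130 chain that IL-27 shares with IL-6, fell from 582.3 to 491.9 CPM in WT and from 539.5 to 485.1 CPM in KO. Socs3 and Socs1, inhibitors of cytokine signalling, rose furthest among the named genes of this list, by 4.54 and 4.72 on the log2 scale in WT and by 4.09 and 4.83 in KO.

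Between genotypes, 3 receptor chains were called after 4 h of Jurkat cells. Il12rb1 (-0.37 ± 0.10) and Il12rb2 (-0.31 ± 0.07), the paired chains of the IL-12 receptor, were lower in KO and Il27ra, the IL-27 receptor chain, was higher (0.48 ± 0.11). Called receptor and signalling genes were 1 higher and 1 lower untreated, 1 and 4 after 30 min of OVA, 1 and 1 after 30 min of Jurkat cells, 0 and 3 after 4 h of OVA and 1 and 4 after 4 h of Jurkat cells. The shares over all genes were 9.97%, 12.4%, 9.25%, 12.6% and 22.9% in that order. With total counts the split was 2 higher and 3 lower after 30 min of OVA, 0 and 2 after 4 h of OVA and 2 and 2 after 4 h of Jurkat cells.

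Of 24 transcription factors known to act on these genes or in these cells, 20 were called higher and 4 lower after 4 h of Jurkat cells in each genotype, with medians of 1.83 in WT and 1.74 in KO, beside 79.5% and 78.5% of all genes called. Nfkbiz, an inducible NF-kappa-B cofactor, rose from 36.8 to 946.1 CPM in WT and from 32.1 to 928.8 CPM in KO. Nfkb2, an NF-kappa-B subunit, rose from 130.6 to 849.9 CPM in WT, and Irf1, an interferon regulatory factor, from 190.7 to 837.6 CPM. In response to 4 h of OVA, 15 were called higher and 1 lower in WT, and 14 and 1 in KO, beside 23.5% and 11.6% of all genes. EdgeR called the difference between genotypes in this response for 0 of the 24, beside 0.0405% of all genes. Of the 24, 7 had an unadjusted p under 0.05, and DESeq2 called 1. Between genotypes 11 of 24 were lower and 1 higher in KO after 4 h of OVA, among them Irf7 (126.4 against 261.0 CPM), Relb (93.6 against 131.0 CPM), Junb (211.8 against 267.9 CPM) and Irf1 (189.2 against 227.0 CPM). In the other conditions 4 were higher and 5 lower untreated, 1 and 4 after 30 min of OVA, 2 and 3 after 30 min of Jurkat cells, and 2 and 7 after 4 h of Jurkat cells. Over all genes the shares called were 12.6% after 4 h of OVA and, for the other conditions in that order, 9.97%, 12.4%, 9.25% and 22.9%. With total counts the split was 5 higher and 5 lower after 4 h of Jurkat cells, 1 and 8 after 4 h of OVA, 2 and 4 after 30 min of OVA and 3 and 2 after 30 min of Jurkat cells.

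Of 14 cytokine genes induced beside the family, 12 passed the filter on low counts through other libraries too. All 12 were called higher after 4 h of Jurkat cells in each genotype, by 1.73 to 10.20 on the log2 scale in WT and 1.55 to 10.52 in KO, beside 79.5% and 78.5% of all genes called. The list was named for induction and chosen with earlier results of these data known, so these calls describe it and do not test it. The remaining 2, Csf2 and Ifnb1, passed only through the 4 h Jurkat libraries. Ifnb1, interferon beta, had 0 counts in all 6 untreated libraries and was at least 580-fold higher in WT and at least 179-fold higher in KO after 4 h of Jurkat cells, against a floor of 3 counts over the group. Tnf rose from 10.5 to 1436 CPM in WT and from 9.32 to 1262 CPM in KO. The chemokine gene Ccl4 rose from 3.03 to 689.7 CPM in WT and from 2.65 to 423.9 CPM in KO. In response to 4 h of OVA, 11 of the 12 were called higher in WT and 6 in KO, beside 23.5% and 11.6% of all genes called. The difference between genotypes in this response was called by edgeR for 0 of all 14 (4 had an unadjusted p under 0.05, and DESeq2 called 2). KO levels were lower for 7 and higher for 0 of the 12 after 4 h of OVA. Ccl4 (10.2 against 26.7 CPM, -1.37 ± 0.17) and Ccl5 (93.4 against 152.8 CPM, -0.71 ± 0.07) led there. After 4 h of Jurkat cells 6 of the 12 were lower and 1 higher in KO. Ifnb1, outside these 12, had a mean of 3.68 CPM in KO against 12.5 CPM in WT and is not counted among the calls. The shares over all genes were 12.6% after 4 h of OVA and 22.9% after 4 h of Jurkat cells. Untreated, 2 of the 12 were lower and 0 higher in KO, beside 9.97% of all genes called, and after 30 min of OVA 5 and 0, beside 12.4%. After 30 min of Jurkat cells 8 of the 12 were higher and 1 lower, beside 9.25%. Without KO replicate 1, 4 of all 14 were higher and 2 lower.

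Genes whose pattern was most like each member's were taken as the 3 with the highest Pearson correlation of log2(CPM + 1) over the 30 libraries, among 10713 genes that reached 5 CPM. Libraries of a group share their treatment, so these values describe and carry no p. For Il12b they were Nr4a3 (0.998), Il6 (0.995) and Il2ra (0.993), at 0.939, 0.874 and 0.801 over the 24 libraries without the 4 h Jurkat groups. Among those 24, Il12b stood at 94.8 CPM in KO replicate 1 at 30 min of Jurkat cells and at most at 32.2 CPM elsewhere. The weight of that library in these values was not tested. For Il27 they were Hspa1a (0.998), Nos2 (0.997) and Swap70 (0.997), at 0.919, 0.912 and 0.911 over the 24. For Ebi3 they were Swap70, Otud5 and Foxp4 (all 0.997), at 0.882, 0.879 and 0.885 over the 24. For Il23a they were Basp1, Psmd11 and Hsd17b11, at 0.981 to 0.982 over 30 and at 0.367, 0.242 and 0.0721 over the 24. For Il12a they were 2900026A02Rik (0.927), Itgae (0.922) and Cox6a2 (0.912), at 0.914, 0.878 and 0.878 over the 24. Itgae is a marker of type 1 conventional dendritic cells and Cox6a2 one of plasmacytoid dendritic cells in the lists used here. Each is 1 gene of its list, and the lists as a whole did not follow Il12a. In untreated cells, 1 of 10 plasmacytoid markers was called higher in KO and 5 lower. Of 9 type 1 markers 2 were called higher and 1 lower, beside 9.97% of all genes.

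Among the members themselves, Il12b, Il23a, Il27 and Ebi3 correlated at 0.967 to 0.991 over the 30 libraries, and Il12a at -0.591 to -0.667 with each of them. Without the 4 h Jurkat groups the highest value was that of Il27 with Ebi3, the subunits of IL-27, at 0.779. Il12b with Il27 stood at 0.515, and that of Il12b with Il12a, the subunits of IL-12, at 0.229. Il12b with Ebi3 stood at 0.207. Il12b with Il23a, the subunits of IL-23, stood at 0.00628. Il23a stood at 0.0872 with Il27 and at 0.00275 with Ebi3, and its counts were low in these libraries. Il12a stood at -0.406 with Ebi3, -0.177 with Il27 and -0.0810 with Il23a.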

How the data were processed

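Total RNA was taken up in Trizol, cleaned on columns with DNase and sequenced from TruSeq RNA Library Prep Kit v2 libraries, per the labels' protocols. The authors deposited whole-number read counts per gene with mm10 intervals, per the file headers. STAR 2.5, Subread, featureCounts 1.5.0-p1 and DESeq2 are named, without a role, per the submitters' processing notes. Annotation, strand use and the handling of human Jurkat reads are not given in the sources used, so reads shared with overlapping genes are uncertain.

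The counts were fitted with edgeR 4.0.16 (R 4.3.3): TMM scaling, filterByExpr by group, and a single quasi-likelihood model with 1 mean for each of 10 groups and no further term, two-sided, with Benjamini-Hochberg adjustment over 14808 genes. The model shares 1 estimate of spread per gene, so a library that stands apart in 1 group widens the error in all. SE is the size of a log2 fold change over the square root of F. The members are always named. Genes of the pathway lists are named where called and at 1 CPM or more, up to 4 per list and comparison by smallest p, and receptor genes wherever space allowed. The members and lists were chosen with earlier results of these data known. Groups and replicate numbers came from the sample titles. Deviations of same-numbered libraries correlated over 0.1 throughout in 1 of 21 comparisons, so the numbers were not taken as pairs. Alternatives were DESeq2 1.42.0 and its size factors, total counts, no filter, a replicate block, the compared groups alone and leaving out each library. The model script was tested on simulated data. Intervals and floors cover counting error only, since reads are not independent molecules. Protein sequences were not analysed here. The values of 1 gene of the pathway lists are not reported here.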

Additional observations from a re-analysis of the deposited data

Results flagged for a closer look

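A contrast added after the values were seen tested, in edgeR's model, whether the genotype difference changed between 30 min and 4 h of Jurkat cells, and it was called for 2 members. For Il27 the log2 difference between KO and WT was 1.01 at 30 min and -0.71 at 4 h, a change of -1.72 (FDR 0.00082). For Il12b it was 1.02 at 30 min and -0.14 at 4 h, a change of -1.15 (FDR 0.0497). Without KO replicate 1 at 30 min the changes were -1.19 (FDR 0.00986) for Il27 and -0.27 (FDR 0.414) for Il12b. The Il12b call was lost when any 1 of 9 of the 12 libraries was left out, and also with total counts (-1.08, FDR 0.0572), the replicate block (-1.10, FDR 0.0583), DESeq2 (-1.16, adjusted p = 0.0779) and the compared groups alone (-1.13, FDR 0.194). Il27 was called under each of these alternatives.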

How the results depend on the processing

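Over 71 fold changes of members and 894 alternative values, 845 kept their direction and their side of the threshold, 37 lost a call, 12 gained one and 0 reversed. The responses of Il12a, Il12b, Il27 and Ebi3 to 4 h of Jurkat cells against untreated cells kept direction and call under every alternative run.

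In a fit of the compared groups alone, KO against WT at 30 min of Jurkat cells gave 1.02 for Il12b (FDR 0.201) and 1.01 for Il27 (FDR 0.128), neither called, and 1 member was called. That fit also gave 1.59 for Il12b (FDR 0.0503) and 1.10 for Il27 (FDR 0.0842) for 30 min of Jurkat cells in KO, with 0 members called, and 0.23 for Il12b after 4 h of OVA in WT (FDR 0.0359). For Jurkat cells against OVA at 30 min it called 1 member in WT and 0 in KO, where DESeq2 called 2. With total counts, Ebi3 in KO against WT after 4 h of OVA was -0.14 and Il12a after 4 h of Jurkat cells 0.27, with 2 members called. Il27 after 4 h of OVA in KO was 0.87 with total counts, no filter, the compared groups alone or DESeq2, and each called 1 member.

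Leaving out 1 library at a time, KO against WT at 30 min of Jurkat cells ranged from 0.22 to 0.32 for Il12a, 0.14 to 1.35 for Il12b and 0.48 to 1.26 for Il27, with 0 to 3 members called. KO against WT ranged from -0.20 to -0.14 for Ebi3 after 4 h of OVA and from 0.11 to 0.27 for Il12a after 4 h of Jurkat cells (1 to 2 members called). In KO, the response to 30 min of Jurkat cells ranged from 0.57 to 1.35 for Il27 (1 to 2 called), and against OVA 1 to 2 members were called. The KO response of Ebi3 to 4 h of OVA ranged from 0.093 to 0.21, called without untreated replicate 3 (0 to 1 called). The difference between genotypes in the Il12b response to 30 min of Jurkat cells ranged from 0.30 to 1.52 (0 to 1 called). The cause of these changes was not tested.

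The replicate block changed 1 call of a member, that of Il12b in the contrast of 4 h against 30 min of Jurkat cells between genotypes (-1.10, FDR 0.0583). That contrast was added after seeing the data, and its call for Il12b was also lost with total counts, DESeq2 or the compared groups alone. Counts of 0 to 5 per library limit Il23a in every group other than those at 4 h of Jurkat cells.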
